A study of Mus musculus with 8 samples.

Results

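The Hsd17b and Hsd11b genes encode hydroxysteroid dehydrogenases, and 9 of them were examined here as a family chosen by name: Hsd17b2, Hsd17b4, Hsd17b6, Hsd17b8, Hsd17b10, Hsd17b11, Hsd17b12, Hsd17b13 and Hsd11b1. The 9 genes are among 21252 gene symbols on the array, and 18 of the 149782 non-control probes map to them by symbol or RefSeq accession. Hsd17b8 was found under H2-Ke6, its symbol in the RefSeq table. RNA came from livers of male mice, 1 array per animal, in a study that set mice with drug-induced hepatic sinusoidal obstruction syndrome (HSOS), in which the narrow blood channels of the liver are damaged and blocked, against normal animals. The oxaliplatin group (n = 4) had received the platinum drug oxaliplatin by weekly intraperitoneal injection for 6 weeks. The control group (n = 4) is labelled as normal mice, with no vehicle named. Strain and age are not given in the sources used here, and the design describes the 4 arrays of a group as biological replicates. Levels below are log2 fluorescence intensities relative to each array's 75th percentile, and differences are oxaliplatin minus control.

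Most members of this family belong to the short-chain dehydrogenases, enzymes that move hydrogen between NAD or NADP and a hydroxyl or keto group. Hsd11b1 turns the inactive 11-dehydrocorticosterone of the mouse into corticosterone in the endoplasmic reticulum of hepatocytes, and Hsd17b2 and Hsd17b6 act on oestrogens and androgens. The others are named for steroids but are known mainly for other work, most of it on lipids. Hsd17b4 acts in peroxisomes, Hsd17b8 and Hsd17b10 in mitochondria, Hsd17b12 in the endoplasmic reticulum, and Hsd17b11 and Hsd17b13 on lipid droplets. What joins the short-chain dehydrogenases in sequence is a cofactor fold with a conserved Asn-Asn-Ala-Gly motif.

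The motif can be read directly in the catalogue probes of Hsd17b6 (chr10:127431580-127431639, minus strand, build mm9) and Hsd17b13 (chr5:104399858-104401590, minus strand), shown here because they place the measurement inside the coding sequence. Capitals mark the codons for Asn-Asn-Ala-Gly.
Hsd17b6 catalogue probe: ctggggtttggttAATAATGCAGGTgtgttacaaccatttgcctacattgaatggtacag
Hsd17b13 catalogue probe: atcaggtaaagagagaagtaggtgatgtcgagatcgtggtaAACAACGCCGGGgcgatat
Codons for this motif in a frame without a stop occur in 21 of the 149782 non-control probes (0.0140%), searched on the given strand. The Hsd17b13 probe has 60 bases but spans 1733 bases of the genome, so it crosses an intron. The catalogue probe of Hsd17b12 (chr2:93873719-93873778, minus strand) is shown because it carries a difference described below.
Hsd17b12 catalogue probe: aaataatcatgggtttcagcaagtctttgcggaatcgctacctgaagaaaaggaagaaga
The probes of Hsd11b1 and Hsd17b11 are shown by their first 30 bases, since probes for these 2 genes gave different answers. The catalogue probes lie at chr1:195048169-195048228 for Hsd11b1 and chr5:104419127-104419186 for Hsd17b11, both on the minus strand; the files list no position for custom probes.
Hsd11b1 catalogue probe: aaggacatgtttgtaagtaactaggaactc
Hsd11b1 custom probe: catagtggttgtatcggctttacctcacac
Hsd17b11 catalogue probe: atcaccaggttttcagagcttgtactgtcg
Hsd17b11 custom probe: tgctgcagagaccatggcttgacctttaaa

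All 18 probes, 8 custom and 10 catalogue, were well above background on all 8 arrays, none was saturated, and all 9 genes were tested. With each gene represented by its brightest probe, limma called 0 of 9 genes at an adjusted p under 0.05, where 18.6% of the 13913 genes tested were called. At an unadjusted p under 0.05 there were 6 of 9 genes, against 36% of all genes, and a variance model with trend and robust settings called 1, Hsd17b13. The groups did not overlap for 3 of 9 genes, Hsd17b2, Hsd17b11 and Hsd17b12, against 27.7% of all genes. Differences were above 0 for 7 genes and below 0 for Hsd17b10 and Hsd17b13. Their median was 0.23, beside -0.09 for all genes, and both figures rest on which probe stands for Hsd11b1, whose 2 probes are nearly tied in level and opposite in sign. With its other probe 6 differences were above 0 and 3 below, with a median of 0.15, and with the other of 2 nearly tied probes for Hsd17b11 as well the median was 0.061. The counts of called, unadjusted and non-overlapping genes rest on these choices as well. The other Hsd11b1 probe passed the limma test over all probes (adjusted p = 0.0264), with no overlap between groups. Where it stood for the gene, in the series matrix, Hsd11b1 was called lower (adjusted p = 0.00844). On the other Hsd17b11 probe the groups overlapped (unadjusted p = 0.977). Over all probes, 18.4% were called, and 2 of the 18 probes of the family were among them, 1 of Hsd17b12 (higher, as were 7.42% of all probes) and 1 of Hsd11b1 (lower, as were 11% of all probes).

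**Figure D1:**
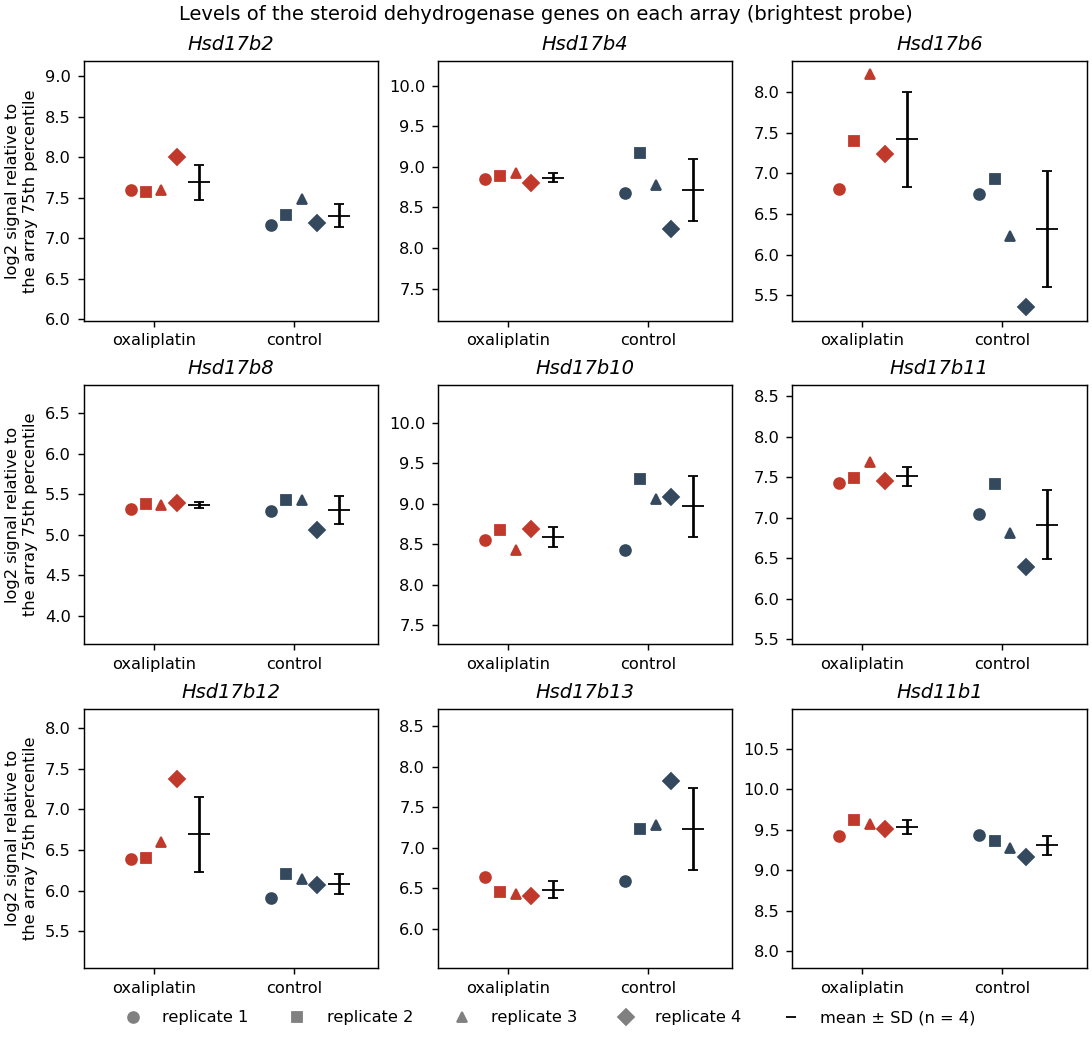
Level of each gene (log2 intensity relative to the array's 75th percentile, brightest probe) on each array, oxaliplatin left and control right, with group means ± SD (n = 4 each). The panels of Hsd17b2, Hsd17b11 and Hsd17b12 have no overlap between groups, and the control points of Hsd17b13 spread from 6.59 to 7.82.

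Hsd11b1, the enzyme that regenerates corticosterone, has a custom and a catalogue probe, and their differences had opposite signs, of which the catalogue probe's passed the test. The catalogue probe read 8.94, 9.37, 9.19 and 9.09 on the oxaliplatin arrays, against 9.82, 9.69, 9.80 and 9.47 on the control arrays. Every oxaliplatin array was below every control array. By this probe Hsd11b1 fell by 0.55 ± 0.13 (log2; SE over 4 arrays in each group; limma adjusted p = 0.0264 over all probes), 1.46-fold. Its custom probe read 9.42, 9.62, 9.57 and 9.51 on the oxaliplatin arrays, against 9.43, 9.36, 9.27 and 9.16 on the control arrays. Here 3 of the 4 oxaliplatin arrays exceeded every control array, and oxaliplatin replicate 1 lay just under control replicate 1. That difference was 0.23 ± 0.10 (SE; adjusted p = 0.133) in the fit over genes. The call on the catalogue probe was lost in 10 of 19 alternatives, among them those without oxaliplatin replicate 1 (-0.48, adjusted p = 0.0564), 3 (-0.56, 0.0603) or 4 (-0.53, 0.0655), or without control replicate 1 (-0.51, 0.0563) or 3 (-0.51, 0.0719). The difference stayed between -0.70 and -0.44 in all 19.

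Both Hsd11b1 probes read the same RNA sample on the same array, so the gap between them does not depend on how arrays are scaled to each other by a constant. Custom minus catalogue, it was 0.49, 0.26, 0.38 and 0.43 on the oxaliplatin arrays, against -0.38, -0.33, -0.53 and -0.31 on the control arrays. The custom probe was thus the brighter of the pair on all 4 oxaliplatin arrays and the dimmer on all 4 control arrays. The gap differed by 0.77 ± 0.07 between groups (SE; limma adjusted p = 0.00143 over 10517 genes with at least 2 probes, a test added after the values were seen). Such a difference in gap was called for 23.6% of these genes, and for Hsd11b1 it was called in 15 of 15 alternatives, between 0.73 and 0.82. Because the mean levels of the 2 probes over all arrays differed by only 8.89e-05, the choice of the brightest probe was close to a tie, and with it the sign given to the gene.

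Hsd17b2 oxidises oestradiol and testosterone to weaker forms. Its custom probe read 7.59, 7.57, 7.59 and 8.01 on the oxaliplatin arrays, against 7.17, 7.29, 7.49 and 7.19 on the control arrays. All 4 oxaliplatin arrays were above the highest control array, and replicate 4 stood apart from the other oxaliplatin arrays. The difference was 0.41 ± 0.13 (SE; 95% interval 0.11 to 0.71; adjusted p = 0.0636), which did not pass. The catalogue probe read 6.06, 5.93, 5.95 and 6.39 on the oxaliplatin arrays, against 5.77, 5.79, 5.97 and 5.78 on the control arrays, and there the groups overlapped through control replicate 3. That probe gave 0.25 ± 0.13 (SE; adjusted p = 0.197). The gene's difference was positive in 20 of 20 alternatives, between 0.25 and 0.52, and called in 4.

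Hsd17b6, an enzyme of androgen metabolism close in sequence to the retinol dehydrogenases, had the widest difference of the family. Its custom probe read 6.81, 7.40, 8.22 and 7.24 on the oxaliplatin arrays, against 6.75, 6.93, 6.22 and 5.35 on the control arrays. Of the oxaliplatin arrays, 3 were above all control arrays and replicate 1 was below control replicate 2. The difference was 1.11 ± 0.40 (SE; adjusted p = 0.0848), a 2.15-fold ratio with a 95% interval from 1.14 to 4.04. The catalogue probe over the Asn-Asn-Ala-Gly codons read 2.98, 3.36, 4.14 and 3.35 on the oxaliplatin arrays, against 2.70, 3.23, 2.50 and 1.51 on the control arrays. It gave 0.97 ± 0.37 (SE; adjusted p = 0.0978), with the 8 arrays in the same order as on the custom probe. The 20 alternatives gave differences between 0.78 and 1.42, and Hsd17b6 was called in none of them.

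Hsd17b12, the ketoacyl-CoA reductase of the cycle that lengthens fatty acids, had higher means on the oxaliplatin arrays by both of its probes. The catalogue probe read 4.12, 4.26, 4.35 and 4.82 on the oxaliplatin arrays, against 3.51, 3.85, 3.57 and 3.36 on the control arrays. The custom probe read 6.39, 6.40, 6.60 and 7.38 on the oxaliplatin arrays, against 5.91, 6.20, 6.14 and 6.07 on the control arrays. Neither probe showed overlap between groups, and oxaliplatin replicate 4 was the highest array on both. By the catalogue probe Hsd17b12 rose by 0.81 ± 0.18 (SE; limma adjusted p = 0.0182 over all probes), 1.76-fold. This call was kept in 18 of 19 alternatives, between 0.67 and 1.01, and lost with the replicate number as a block (adjusted p = 0.0652). The custom probe, which stands for the gene, gave 0.61 ± 0.22 (SE; adjusted p = 0.0828). Without oxaliplatin replicate 4 that difference was 0.38 (adjusted p = 0.0809), and with normexp background correction it was also 0.38. The gene's difference ranged from 0.38 to 0.91 over 20 alternatives and was called in 5.

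Hsd17b4 is the peroxisomal bifunctional protein that breaks down very long and branched fatty acids and bile acid precursors. Its catalogue probe read 8.85, 8.89, 8.93 and 8.80 on the oxaliplatin arrays, against 8.68, 9.18, 8.77 and 8.23 on the control arrays. The oxaliplatin arrays sat close together inside the range of the control arrays. The difference was 0.15 ± 0.18 (SE; 95% interval -0.26 to 0.57; adjusted p = 0.586). A custom probe gave 0.07 ± 0.20 (SE; adjusted p = 0.823), with levels from 2.98 to 3.51 on the oxaliplatin arrays and from 2.71 to 3.64 on the control arrays. The interval on the brighter probe leaves room for changes of up to 1.48-fold upward.

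Hsd17b8 and Hsd17b10 work in mitochondria, the first with Cbr4 as the ketoacyl reductase of mitochondrial fatty acid synthesis, the second in isoleucine breakdown and as a subunit of the enzyme that cuts mitochondrial transfer RNAs out of their precursors. Hsd17b8 read 5.32, 5.39, 5.37 and 5.40 on the oxaliplatin arrays, against 5.30, 5.44, 5.43 and 5.07 on the control arrays. Its groups overlapped, and the difference was 0.06 ± 0.11 (SE; 95% interval -0.18 to 0.30; adjusted p = 0.713), with the same 0.06 from its catalogue probe. Hsd17b10 read 8.55, 8.68, 8.43 and 8.70 on the oxaliplatin arrays, against 8.43, 9.30, 9.06 and 9.09 on the control arrays. Of the control arrays, 3 were above all oxaliplatin arrays, while replicate 1 lay among the oxaliplatin arrays. The difference was -0.38 ± 0.18 (SE; adjusted p = 0.170), and the catalogue probe gave -0.22 ± 0.17 (SE; adjusted p = 0.388). Without control replicate 1, Hsd17b10 passed the test, at -0.56 ± 0.12 (SE; adjusted p = 0.0236), and over 20 alternatives it ranged from -0.56 to -0.27.

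Hsd17b13, a lipid droplet enzyme of hepatocytes with retinol dehydrogenase activity, had 1 probe. It read 6.64, 6.45, 6.43 and 6.41 on the oxaliplatin arrays, against 6.59, 7.23, 7.28 and 7.82 on the control arrays. On the control side 3 arrays were above every oxaliplatin array, and control replicate 1 lay within the range of the oxaliplatin arrays. The difference was -0.75 ± 0.23 (SE; 95% interval -1.28 to -0.22; adjusted p = 0.0548), a 1.68-fold lower mean that missed the threshold. It was below 0 in 20 of 20 alternatives, from -0.96 to -0.55, and called in 4, among them the fit without control replicate 1 (-0.96 ± 0.16, SE; adjusted p = 0.0156).

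Hsd17b11, the other lipid droplet enzyme of the family, has 3 probes that did not give one answer. The custom probe read 7.43, 7.49, 7.68 and 7.45 on the oxaliplatin arrays, against 7.04, 7.41, 6.81 and 6.39 on the control arrays. The lowest oxaliplatin array was only just above control replicate 2, and the other control arrays were well below it. The difference was 0.60 ± 0.20 (SE; adjusted p = 0.0718), and without control replicate 2 it passed at 0.76 ± 0.17 (SE; adjusted p = 0.0270). With the mean of the 3 probes in place of the brightest it was 0.16. The catalogue probe starting at base 1296 of the transcript read 7.07, 7.18, 7.44 and 7.15 on the oxaliplatin arrays, against 7.03, 7.86, 7.17 and 6.75 on the control arrays. It differed by 0.01 ± 0.22 (SE; adjusted p = 0.987), and the catalogue probe at base 806 by -0.13 ± 0.20 (SE; adjusted p = 0.669). On both catalogue probes the groups overlapped, with control replicate 2 above and control replicate 4 below all oxaliplatin arrays.

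The gap between the 2 brightest Hsd17b11 probes, custom minus catalogue, was 0.37, 0.31, 0.24 and 0.30 on the oxaliplatin arrays, against 0.01, -0.45, -0.35 and -0.35 on the control arrays. All oxaliplatin arrays were above all control arrays. The gap differed by 0.59 ± 0.10 (SE; limma adjusted p = 0.00741), and by 0.53 to 0.69 in 15 alternatives, 14 of which called it. On the 6 arrays that share 1 run name it was 0.55 with an adjusted p of 0.0624. The mean levels of these 2 probes differed by 0.00779, so this gene's brightest probe was also nearly a tie. Among the other 6 genes with more than 1 probe, no difference in gap passed, the nearest being Hsd17b2 (0.16 ± 0.05, SE; adjusted p = 0.0702). With normexp background correction the gaps of Hsd17b10 (-0.20, adjusted p = 0.0468) and Hsd17b12 (-0.34, adjusted p = 0.0461) passed, and that of Hsd17b2 was 0.082 (adjusted p = 0.470). The 2 of 8 genes called lie near the 23.6% of all genes, and gaps of Hsd11b1, Hsd17b11 and Hsd17b2 did not overlap between groups, as for 29.1% of all genes. What sets the probes of Hsd11b1 and Hsd17b11 apart was not tested.

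**Figure D2:**
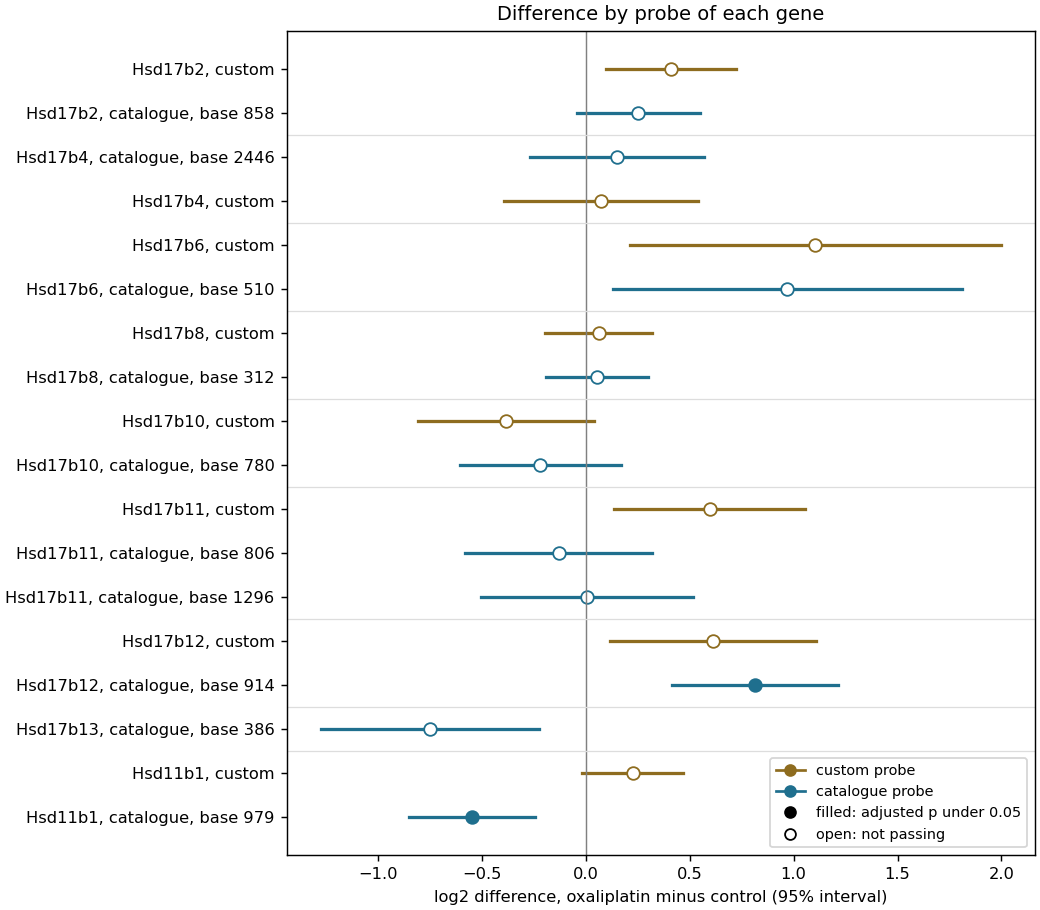
Log2 difference, oxaliplatin minus control, for each of the 18 probes with its 95% interval; a base number is where a catalogue probe starts in its transcript. Filled points mark the 2 probes with an adjusted p under 0.05 over all probes, Hsd17b12 at 0.81 and Hsd11b1 at -0.55, and the Hsd11b1 probes lie on opposite sides of 0.

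**Figure D3:**
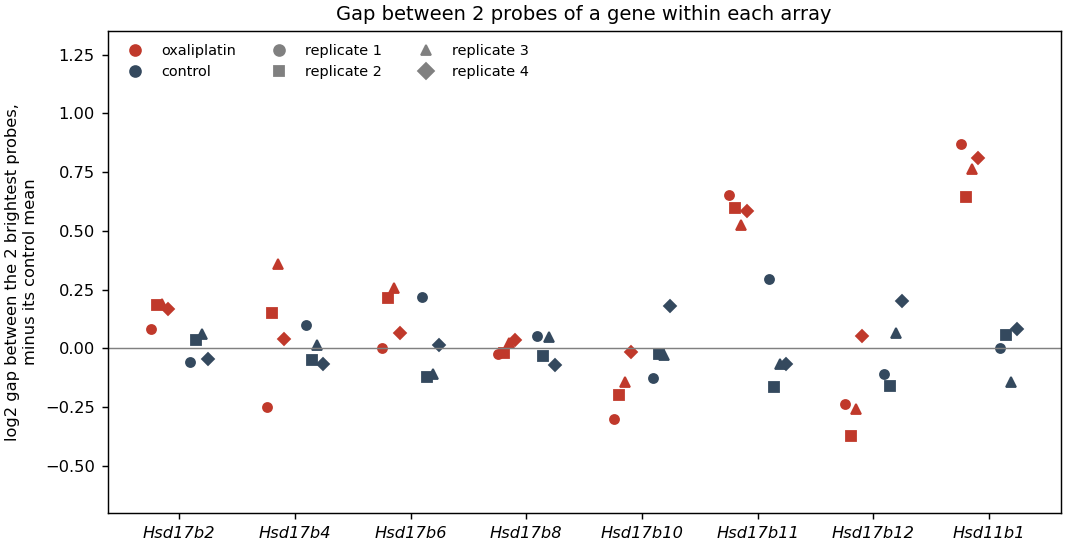
Gap between the 2 brightest probes of a gene on each array (log2, brightest minus second, with the control mean of the gene set to 0), oxaliplatin left of control. The groups do not overlap for Hsd11b1, Hsd17b11 and Hsd17b2, whose gaps differ by 0.77, 0.59 and 0.16.

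The control livers varied more than the oxaliplatin livers for most of the family. The control SD was the larger for 7 of 9 genes (77.8%), against 64.7% of all genes. This count also rests on which probe stands for Hsd11b1. Its other probe had the larger SD on the oxaliplatin arrays, 0.18 against 0.16 on the control arrays. The median SD was 0.115 on the oxaliplatin arrays and 0.375 on the control arrays for the family, beside 0.175 and 0.226 for all genes. Hsd17b4 had an SD of 0.06 on the oxaliplatin arrays and 0.39 on the control arrays, and Hsd17b13 had 0.11 on the oxaliplatin arrays and 0.50 on the control arrays. Hsd17b2 and Hsd17b12 ran the other way, with 0.21 and 0.47 on the oxaliplatin arrays against 0.15 and 0.13 on the control arrays. Control replicate 2 was the highest control array for 6 of the 9 genes, and the lowest control array was replicate 4 for 5 genes and replicate 1 for 4.

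The members called depended on scaling and background correction. With the 75th percentile taken over detected probes, Hsd17b2, Hsd17b11 and Hsd17b12 were called higher, and with normexp background correction Hsd17b10 and Hsd17b13 were called lower and no member was called higher. The median difference of all genes was 0.023 under the percentile over detected probes and -0.13 under normexp, beside the -0.09 given above. Members' directions held in both except for Hsd17b4, which was -0.020 with normexp.

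**Figure D4:**
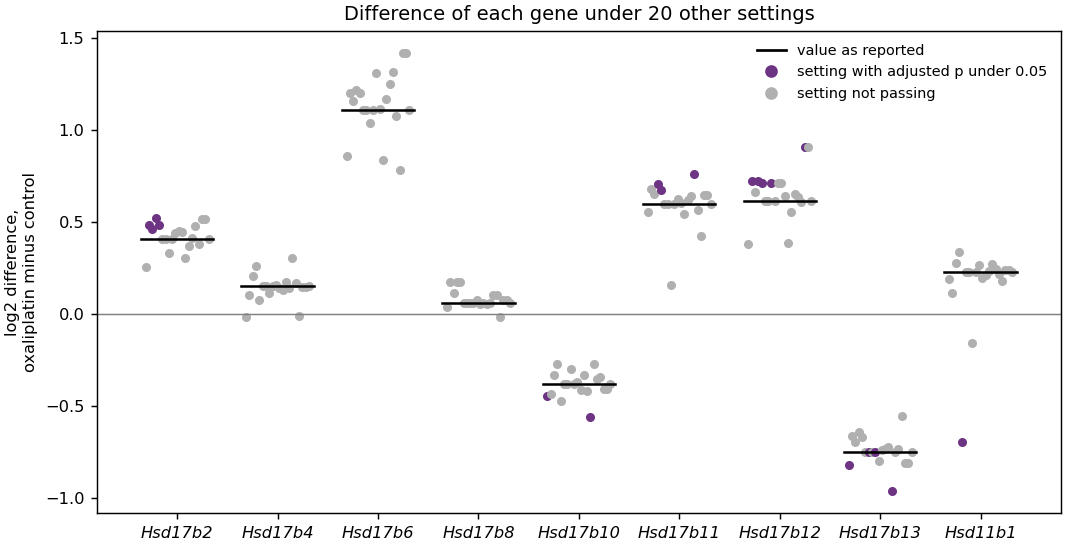
Log2 difference of each gene, oxaliplatin minus control, under each of 20 alternatives (points, dark where the adjusted p is under 0.05) and as reported (bars). Hsd17b2, Hsd17b6, Hsd17b11 and Hsd17b12 stay above 0 and Hsd17b10 and Hsd17b13 below 0 in all of them, while Hsd17b4, Hsd17b8 and Hsd11b1 cross 0.

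The lists of related enzymes and of pathways around the family are described by counts and medians only, and single genes from them are given with their values. Of the 4 other dehydrogenases of this kind that were tested, Hsd17b7, Akr1c6, Hsdl1 and Hsdl2, none passed with limma, and their differences ran from -0.55 for Hsd17b7 to 0.72 for Akr1c6. Hsd17b1, Hsd17b3, Hsd17b14 and Hsd11b2 were not bright enough to be tested. Across all genes 6.99% were called higher and 11.6% lower, against which the list counts below may be read.

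Around Hsd11b1, the list of glucocorticoid reactivation and response held 16 tested genes, of which 1 rose and 3 fell (median -0.30). Differences were above 0 for 7 of the 16. Among those not passing were Tsc22d3 (0.08), G6pc (1.65) and Angptl4 (0.84), and on the other side Zbtb16 (-1.79) and Fkbp5 (-1.33). H6pd, which supplies Hsd11b1 with NADPH, averaged 7.54 ± 0.15 on the oxaliplatin arrays and 7.26 ± 0.11 on the control arrays (SD, n = 4 each; adjusted p = 0.104). The glucocorticoid receptor gene Nr3c1 averaged 4.65 ± 0.34 on the oxaliplatin arrays and 4.82 ± 0.12 on the control arrays (adjusted p = 0.503). Klf9, a transcription factor induced by glucocorticoids, averaged 4.62 ± 0.03 on the oxaliplatin arrays and 5.49 ± 0.10 on the control arrays, and fell by 0.87 ± 0.09 (SE; adjusted p = 0.00230). Per1, a clock gene with a glucocorticoid response, fell by 1.64 ± 0.33 (adjusted p = 0.0151), and the kinase gene Sgk1 fell by 1.09 ± 0.19 (adjusted p = 0.0102). Pck1, an enzyme of gluconeogenesis, rose by 0.34 ± 0.09 (adjusted p = 0.0415), a call lost in 15 of 20 alternatives. Klf9 and Per1 were called in all 20.

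Around Hsd17b2 and Hsd17b6, the sex steroid list held 18 tested genes, of which 3 rose and 1 fell (median 0.49). Hsd3b5, a dehydrogenase typical of male mouse liver, averaged 7.04 ± 1.55 on the oxaliplatin arrays and -1.58 ± 1.13 on the control arrays, where it was above background on 1 of 4. Cyp7b1, which hydroxylates oxysterols and steroids, averaged 8.01 ± 0.46 on the oxaliplatin arrays and 6.14 ± 0.81 on the control arrays, a difference of 1.87 ± 0.40 (SE; adjusted p = 0.0190). Sult1e1, the oestrogen sulfotransferase, averaged 0.30 ± 0.98 on the oxaliplatin arrays and 6.40 ± 2.24 on the control arrays. Ugt2b1 rose by 1.95 ± 0.55 (SE; adjusted p = 0.0430), a call lost in 8 of 20 alternatives. The wider list of retinol dehydrogenases and related short-chain dehydrogenases split evenly, with 3 of 15 higher and 3 lower (median -0.14). Dhrs4 and Rdh12 rose by 0.78 ± 0.14 and 0.87 ± 0.17, and Rdh9 and Rdh16f2 fell by 1.06 ± 0.22 and 0.72 ± 0.15 (SE). Rdh9 and Dhrs4 each had a second probe with a difference of 0.14 and 0.02.

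Around the lipid members, 2 of 19 lipid droplet genes rose and none fell with limma (median -0.06). G0s2, an inhibitor of the lipase Pnpla2, averaged 8.89 ± 0.59 on the oxaliplatin arrays and 6.10 ± 1.64 on the control arrays, and rose by 2.78 ± 0.74 (SE; adjusted p = 0.0360). The G0s2 call was lost in 9 of 20 alternatives. Ldah rose by 0.49 ± 0.14 (SE, adjusted p = 0.0394), with 0.38 from a second probe, and its call was lost in 12 of 20. Peroxisomal oxidation, the setting of Hsd17b4, had 1 gene higher, Acox3 (0.44 ± 0.10, with 0.11 from a second probe), and 1 lower, Acox2 (-0.67 ± 0.14), of 23 (median 0.35). The Acox3 call was lost in 7 of 20 alternatives. In the elongation cycle, where Hsd17b12 acts, 2 of 12 genes rose and 1 fell (median 0.41). The elongase gene Elovl3 averaged 6.38 ± 1.11 on the oxaliplatin arrays and -0.26 ± 2.13 on the control arrays, with 3 of 4 control arrays above background, and Elovl4 differed by 0.67 ± 0.12. Hacd2, the dehydratase that follows Hsd17b12 in the cycle, differed by -0.54 ± 0.14, with -0.08 from a second probe. The Hacd2 call was lost in 11 of 20 alternatives.

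Around the mitochondrial members, Cbr4, the partner of Hsd17b8, averaged 5.69 ± 0.04 on the oxaliplatin arrays and 6.27 ± 0.15 on the control arrays and fell by 0.58 ± 0.10 (SE; adjusted p = 0.00993). With Mecr, which rose by 0.40 ± 0.09 (0.18 from a second probe; call lost in 9 of 20 alternatives), it made up the calls among 10 genes of mitochondrial fatty acid synthesis (median -0.06). Trmt10c, which works with Hsd17b10 on transfer RNA, averaged 4.57 ± 0.21 on the oxaliplatin arrays and 4.33 ± 0.08 on the control arrays (SD) and did not pass (adjusted p = 0.196). Fastkd2 was the only one called of 12 genes of mitochondrial transcript processing (0.63 ± 0.13; median -0.07), and its second probe gave -0.17. Of 13 genes of branched-chain amino acid breakdown, Bcat2 and Ivd fell by 0.49 ± 0.09 and 0.50 ± 0.10 (median -0.07). The list of hepatocyte transcription factors held 19 tested genes, among them the growth hormone receptor gene Ghr (median 0.06). Its 1 called gene was Cux2, a factor of female mouse liver, which fell by 1.89 ± 0.24 (limma adjusted p = 0.00379).

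**Figure D5:**
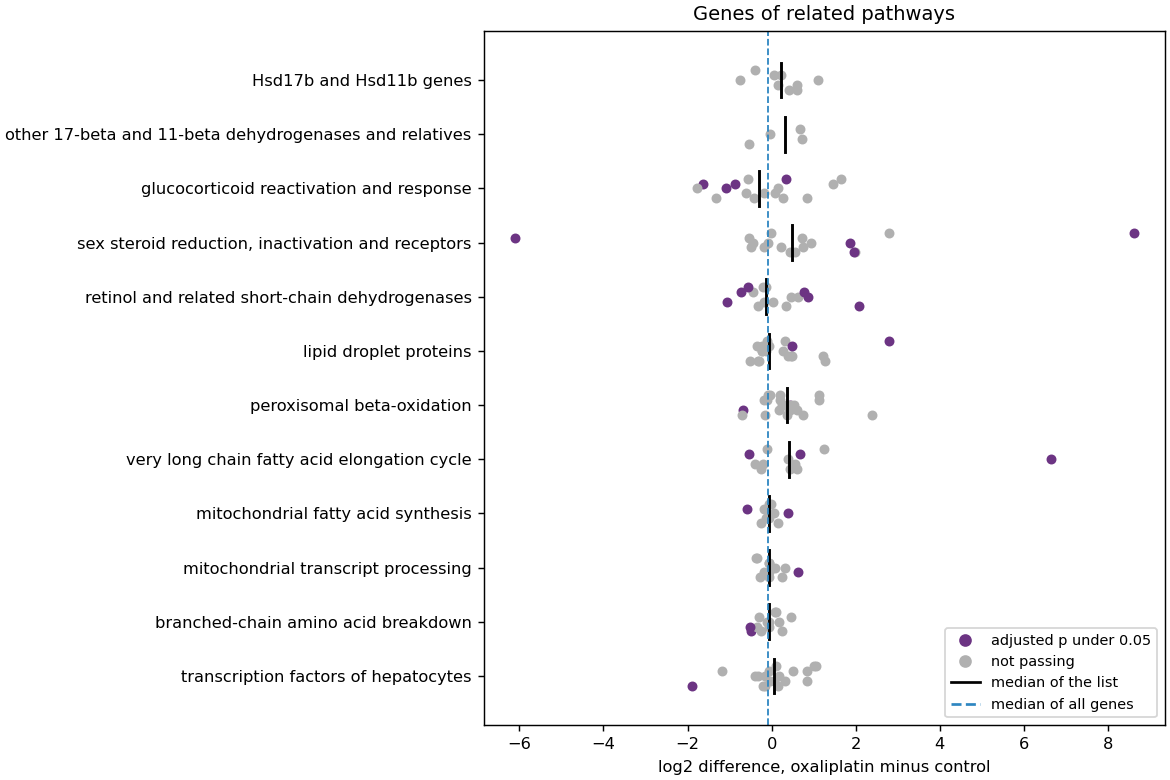
Log2 difference, oxaliplatin minus control, of every tested gene in each pathway list (points, dark where the adjusted p is under 0.05) with the list median (bar) and the median of all genes (dashed line), the family at the top. The medians run from -0.30 for glucocorticoid reactivation and response to 0.49 for the sex steroid list, beside 0.23 for the 9 members (0.15 with the other probe of Hsd11b1).

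The samples carried the defining transcripts of liver, and 5 of 10 hepatocyte markers were higher on the oxaliplatin arrays, with a list mean of 10.06 to 10.16 on those arrays and 9.68 to 9.86 on the control arrays. Erythroid markers were higher for 4 of 6 (list mean 5.75 to 6.58 on the oxaliplatin arrays, 4.12 to 5.76 on the control arrays), and lymphocyte markers for 2 of 6 (0.99 to 1.71 on the oxaliplatin arrays, -0.15 to 0.89 on the control arrays). Adrenal cortex and pancreatic acinar lists each had 1 of 2 tested genes higher, Cyp21a1 by 1.14 and Pnlip by 1.66. Stellate and sinusoidal endothelial cell lists had 1 lower gene each, of 8 and 7. Of 10 pericentral hepatocyte genes 1 was higher, and of 8 periportal genes 1 was higher and 1 lower. None of 5 neutrophil genes passed (list median -1.41, 1 difference above 0). None of 5 cholangiocyte genes passed either (list median 0.19, 3 differences above 0). Of 6 Kupffer cell genes, Marco fell by 2.26 and the other 5, none of which passed, had differences from 0.36 to 0.67 (list median 0.50). The part of these in the values of the family was not tested, and in whole liver fewer cells of a type and less RNA per cell cannot be told apart. The p53 targets Cdkn1a and Phlda3 fell by 3.61 ± 0.66 and 3.57 ± 0.17 on the arrays labelled oxaliplatin (SE; adjusted p = 0.0117 and 0.000214), and all directions here follow the labels, whose exchange was not tested. Between 27.2% (replicate 2) and 38.7% of probes were well above background on the oxaliplatin arrays, and between 36.1% and 40.9% on the control arrays. Each slide held 1 group, so slide and group cannot be told apart, and oxaliplatin replicates 1 and 2 carry another run name than the other 6 arrays.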

How the data were processed

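Liver RNA of 8 mice was measured on Agilent one-colour (Cy3) arrays. Feature Extraction 12.0.3.1 quantified the images, per the file headers; the submitters' processing notes name version 10.7 and limma. The deposited processed signal is a linear intensity, background-subtracted by Feature Extraction and not yet scaled between arrays, and the deposited mean and background signals, used for normexp, are intensity too. The other deposited columns used are flags of 0 or 1 (above background, saturated, outlier). The deposited series matrix holds log2 values whose normalization between arrays is not given in the sources used here; within each array they correlated with the scanner values at 0.996 or more across probes, which are not independent replicates.

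From these, log2 of the processed signal minus each array's 75th percentile was taken, outlier spots were left out, and probes well above background on at least 4 of 8 arrays were kept (54636 of 149782). Names came from the RefSeq table by accession (47985 of 48257 matched), used for names only; positions are those in the files, on mm9. Each gene was represented by its brightest probe, which left 13913 genes. The comparison used limma 3.58.1 (lmFit, eBayes; R 4.3.3), two-sided, with Benjamini-Hochberg adjustment over all genes (or all probes) and a threshold of 0.05. The fit was tested on simulated data. Python 3.11.15, pandas 2.3.3, numpy 2.4.6 and matplotlib 3.10.9 were used for tables and plots. The number of arrays limits the precision.

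Named are all 9 members with every probe, and from each pathway list up to 4 called genes with the smallest adjusted p. H6pd, Nr3c1, Trmt10c and the genes given as not passing were named after their values were seen, as were the cell type genes. Genes resembling a called member were to be listed, and no member was called. The members and lists were chosen with earlier results of these data known. Sequences are from the deposited files. Alternatives covered background correction, scaling (quantile, median, detected probes), the series matrix, the filter, the probe per gene, the variance model, each array left out, run name, and the replicate number as a block; the test of probe gaps and the exchange of nearly tied probes were added after the data were seen.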

Additional observations from a re-analysis of the deposited data

Results flagged for a closer look

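Of 36 groups of 4 arrays, one for each of the 18 probes in each group, 3 held an array far from its other 3 by Dixon's criterion, where chance alone marks about 1 in 20. The Hsd17b2 custom probe read 8.01 on oxaliplatin replicate 4, with the other oxaliplatin arrays between 7.57 and 7.59. Its catalogue probe read 5.97 on control replicate 3, with the other control arrays between 5.77 and 5.79. Hsd17b13 read 6.64 on oxaliplatin replicate 1, with the other oxaliplatin arrays between 6.41 and 6.45.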

How the results depend on the processing

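The number of genes called was 2590 here, and 4114 without the filter on dim probes, 920 with the run name as a covariate, 515 on the arrays of the first run name alone, and 1015 to 2335 with 1 array left out. Called higher were 37.6% of them here, 20.6% with normexp, 49.3% in the series matrix, 47.7% with median centring, 49.96% with quantile normalization, 60.5% with the percentile over detected probes and 67.6% without the filter. Called members, 0 here, were 2 with normexp (Hsd17b10 and Hsd17b13 lower), 2 with quantile normalization (Hsd17b2 and Hsd17b12 higher), 1 with median centring (Hsd17b2), 3 with the percentile over detected probes and 4 in the series matrix (Hsd17b2, Hsd17b11 and Hsd17b12 higher, and in the matrix Hsd11b1 lower). They were 1 with the filter on all 8 arrays or with trend and robust (Hsd17b13), 1 with the mean of probes or the run name as a covariate (Hsd17b12), and 0 to 2 with 1 array left out: Hsd17b10 and Hsd17b13 without control replicate 1, and Hsd17b11 without control replicate 2. Called member probes, 2 here, were 4 with normexp, the percentile over detected probes or trend and robust, 5 with quantile normalization, 1 without the filter, with the run name as a covariate or on the arrays of the first run name, and 1 to 3 with 1 array left out. Values that turned round were -0.020 for Hsd17b4 with normexp, those without control replicate 4 for Hsd17b4 and Hsd17b8 (-0.0098 to 0.30 and -0.019 to 0.10 with 1 array left out), and for Hsd11b1 -0.70 in the series matrix (adjusted p = 0.00844) and -0.16 with the mean of probes; in both, the catalogue probe stands for the gene or enters its mean. The cause of the other changes was not tested. Whether replicate numbers pair the arrays could not be told from the values. Same-numbered arrays had correlated deviations of -0.32, -0.08, -0.09 and -0.23, and arrays with different numbers ran from -0.391 to 0.444. With the replicate number as a block, 529 genes, 0 members and 0 member probes were called. Of 25 named list genes, 5 were called in every alternative that tested them (Klf9, Per1, Cux2, Hsd3b5 and Elovl3). The largest losses among the 25 were 19 on the arrays of the first run name, 15 with the run name as a covariate and 14 with the replicate number as a block. With 1 array left out, the losses ran from 1 (control replicate 2) to 12 (oxaliplatin replicate 3).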
